A study of Mus musculus with 2 samples.

Results

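The genes described here encode the core of heterotrimeric G protein signalling and the proteins that switch it off: regulators of G protein signalling (RGS proteins), the alpha, beta and gamma subunits, G protein-coupled receptor kinases (GRKs), beta-arrestin and the GPSM modulators. They were chosen by name, as the probe sets whose annotated symbol is an Rgs, Gna, Gnb, Gng, Grk, Arrb or Gpsm gene of these families. The rule uses no measured value, but it was set with earlier results of these data known. This gave 60 genes, each with 1 probe set, of 19505 genes on the array. Gnb2, Grk2, Arrb2, Gng14 and Grk7 were not analysed here.

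The samples were mouse CD8 T cells from spleen and lymph node, activated through CD3 and CD28 and measured at day 5 on Affymetrix arrays. Tc1 cells were polarized for 3 days in medium with 10 ng/mL recombinant human IL-2. For Tc9 cells these 3 days were spent with an antibody against interferon gamma at 20 µg/mL, TGF-beta at 1 ng/mL and IL-4 at 10 ng/mL. Both cultures were then held for 2 days with 10 ng/mL IL-2. There was 1 array per group, so no difference below has a replicate check, no p-value or error can be given, and every value describes this pair of arrays. The sample titled Tc9 carries the source name of Tc1 cells. It was read as Tc9 from its title, and on it the log2 signal of Il9 was 8.45 against 4.82 on the Tc1 array, while that of Ifng was 7.57 against 9.28. The labels name no mouse strain, age or number of animals. The stated purpose of the series was to find genes that Tc9 cells express more highly than Tc1 cells.

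A receptor with 7 membrane spans, such as a chemokine, prostaglandin or sphingosine phosphate receptor, activates a G protein by making its alpha subunit exchange GDP for GTP, after which alpha and the beta-gamma dimer each act on effectors. RGS proteins speed the hydrolysis of GTP on the alpha subunit and so shorten the signal. GRKs phosphorylate the active receptor, and beta-arrestins then bind it, uncouple it and carry it to internalization. In T cells, Gi-coupled chemokine receptors steer migration through these proteins, and Gs-coupled receptors raise cyclic AMP, which restrains activation.

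The level of a gene is the log2 of its probe set intensity, and a difference is the Tc9 minus the Tc1 log2 level. Levels were compared between arrays only, never between genes, because probe sets differ in their response. Genes count as detectable here if the higher of their 2 levels is at or above 6.43, the median over all genes and both arrays. By this rule 37 of the 60 genes were detectable, 34 of them on each array. By measured values, 5.41% of all 10147 detectable genes of the series differed by at least 2-fold. Of all these genes, 2.62% were higher and 2.79% lower in Tc9 cells, and the median difference was 0.05. With values below the threshold set to it, 204 of them were at least 2-fold higher and 225 lower. Shares below use measured values. Centring the arrays on the median of all probe sets moved every difference by 0.11 toward Tc9, and the share of higher genes among those past 2-fold from 48.5% to 59.0%. The level of a culture cannot tell fewer cells with a transcript from less transcript per cell.

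Of the 37 detectable genes, Rgs10 was past 2-fold toward Tc9 cells, Rgs1 and Gnal were past 2-fold toward Tc1 cells, and the other 34 lay within 2-fold. The share past 2-fold was 8.11%, beside 5.41% of all detectable genes, and the median difference of 0.10 stood beside 0.05. At 1.5-fold the shares were 16.2% of these genes and 14.6% of all detectable genes. Among the 34 genes above the threshold on both arrays the share past 2-fold was 8.82%, beside 3.46% of all such genes. These shares rest on 3 genes, and they say nothing particular of the set. The 23 genes below the threshold on both arrays differed by between -0.66 and 0.74, and none of them is given a fold.

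**Figure D1:**
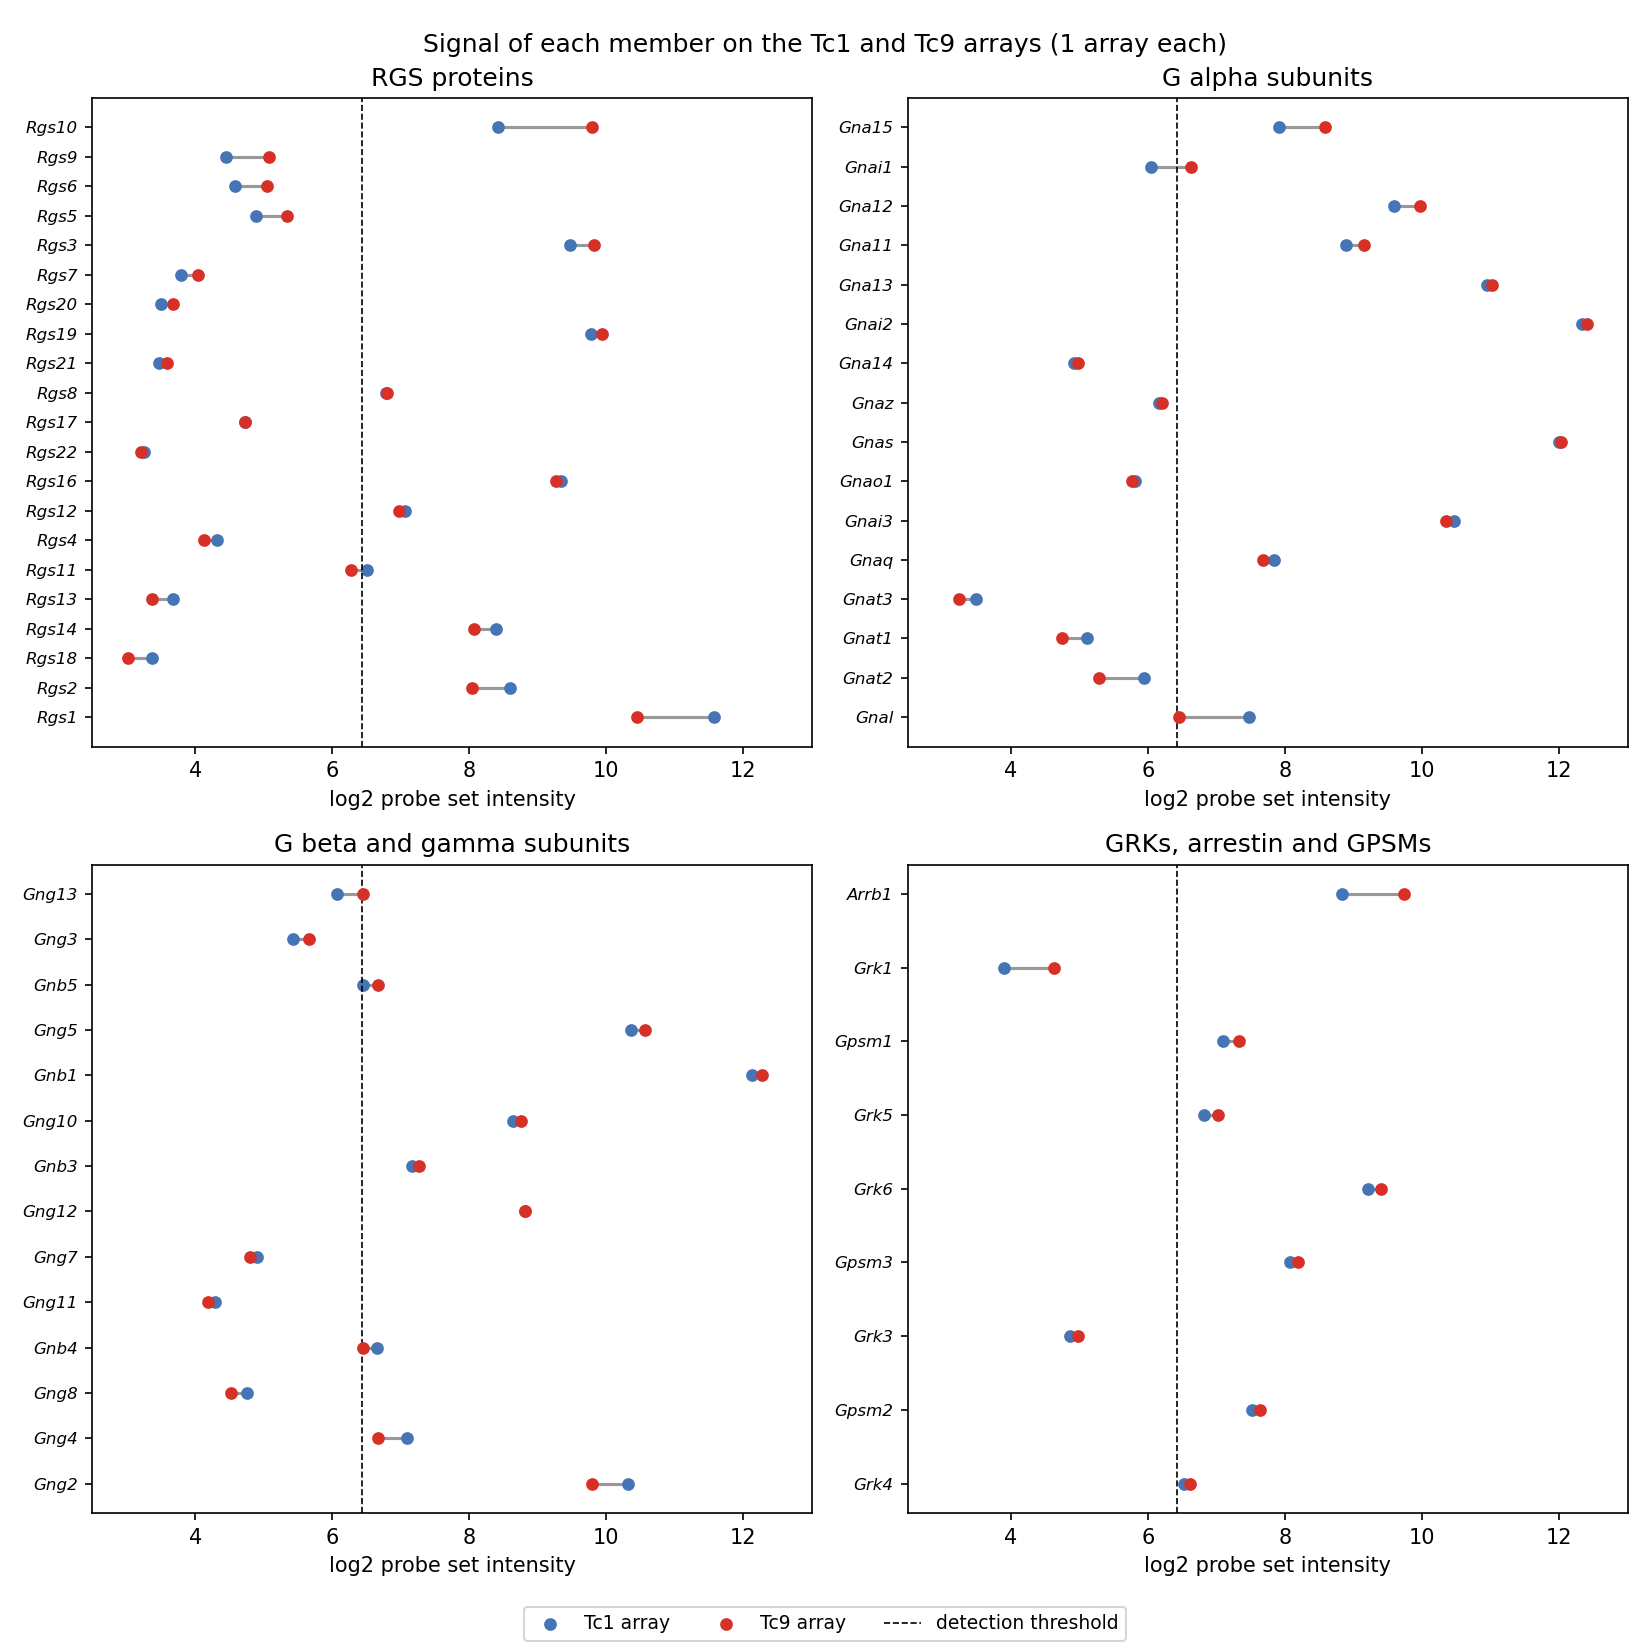
Log2 probe set intensity of each of the 60 genes on the Tc1 array (blue) and the Tc9 array (red), in 4 panels by protein class and ordered by difference. The dashed line is the detection threshold of 6.43. The Rgs10 and Rgs1 points are far apart in opposite directions, while those of Gnai2, Gnas and Gnb1 almost coincide.

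The 2 RGS genes past 2-fold differed in opposite directions. Rgs10 encodes a small RGS protein of the R12 subfamily that acts on Gi-class alpha subunits. Its level was 8.42 in the Tc1 sample and 9.80 in the Tc9 sample, intensities of 342 and 890. The Tc9 value was 2.61-fold higher, a difference of 1.38, and 143rd from the top among the 10147 detectable genes. Macrophages also express Rgs10. Of 8 listed monocyte and macrophage markers 7 were measured and 3 were detectable. Lyz2 was 1.35-fold higher on the Tc9 array, while Fcgr3 and Itgam were 1.83-fold and 1.14-fold lower. The summed intensity of the 7 mixes these directions, at 958 for Tc1 and 935 for Tc9, 1.02-fold lower. The part of such cells in the Rgs10 difference was not tested. The 2 longer proteins of its subfamily, which add a Ras-binding part and a GoLoco motif to the RGS domain, did not share this direction on the deposited scale. Rgs14 had levels of 8.39 and 8.07, 1.25-fold lower in Tc9 cells. Rgs12 had levels of 7.06 and 6.97, a difference of -0.09 that turned to 0.02 after centring on all probe sets.

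Rgs1 encodes an R4 protein, little more than an RGS domain, that dampens responses of lymphocytes to chemokines and is a known transcript of tissue-resident T cells. Its level was 11.57 in the Tc1 sample and 10.45 in the Tc9 sample, intensities of 3037 and 1397. This was 2.17-fold lower in Tc9 cells, a difference of -1.12, and 227th from the bottom of the detectable genes. The fold stayed just past 2 after centring on all probe sets, with a difference of -1.01. B cells are another known source of Rgs1, and their markers were lower on the same array. Of 8 listed B cell markers 7 were measured, and all 7 were detectable and had lower levels on the Tc9 array. Blk and Fcrla passed the threshold on the Tc1 array only, and were at least 1.38-fold and 1.30-fold lower. Ebf1 turned to 0.10 after that centring. The summed intensity of the 7 was 3941 for Tc1 and 2700 for Tc9, 1.46-fold lower. Cd79a, a signalling chain of that lineage, had levels of 10.65 and 9.68. Of 2 measured CD4 T cell markers only Cd4 was detectable, at 9.33 and 8.74, 1.51-fold lower on the Tc9 array. The part of B cells or other cells in the Rgs1 difference was not tested. The 7 measured CD8 T cell markers, among them Cd3e at 12.92 and 12.80, had a summed intensity 1.12-fold lower on the Tc9 array, and Cd8a was at 12.19 and 11.93. Of these 7 markers, 6 had a lower level on the Tc9 array, while Zap70 was 1.47-fold higher.

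The R4 subfamily did not differ as a block. Rgs2, an R4 protein that acts mainly on Gq, had levels of 8.60 and 8.03 and was 1.48-fold lower in Tc9 cells. Rgs3, which acts on Gi and Gq, went the other way, from 9.48 to 9.83, 1.27-fold higher in Tc9 cells. Rgs16, an R4 gene that activated T cells express and that restrains their chemokine responses, was almost level at 9.34 and 9.26. Its difference of -0.08, 6694th from the top of the detectable genes, stood beside their median of 0.05. After centring on all probe sets these values became 0.03 and 0.15. Rgs8, best known from the brain, stood at 6.78 and 6.79. The other 5 R4 genes, Rgs4, Rgs5, Rgs13, Rgs18 and Rgs21, were below the threshold on both arrays. So of Rgs1 and Rgs16, RGS genes well known from activated T cells, Rgs1 was lower in Tc9 cells and Rgs16 hardly differed.

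Most other RGS genes were dim. Rgs19, an RZ protein also called GAIP that acts on Gi, had levels of 9.78 and 9.94, 1.12-fold higher in Tc9 cells. Rgs17 and Rgs20 of the same subfamily were below the threshold on both arrays. Among the R7 genes, whose proteins pair with Gnb5 and serve mainly in neurons and the retina, Rgs11 passed on the Tc1 array only, at 6.51 and 6.27, and was at least 1.05-fold lower. Rgs6, Rgs7, Rgs9 and, outside the subfamilies, Rgs22 lay below the threshold on both arrays. In all, 10 of 21 RGS genes were detectable, with 4 differences above and 6 below 0 and a median of -0.08. After centring on all probe sets these became 6 above and 4 below, with a median of 0.03. Over all 10147 detectable genes, 5715 differences were above 0 before that centring and 6973 after it, with medians of 0.05 and 0.15. The absolute differences of the 10 RGS genes had a median of 0.28, beside 0.20 for the 20 detectable subunit genes and 0.23 for all detectable genes.

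The RGS genes also showed a grouping by position that the choice by name did not use. In the order of protein-coding genes in RefSeq (GRCm38.p6), Rgs2, Rgs13, Rgs1, Rgs21 and Rgs18 follow each other on chromosome 1, 5 genes in a row with no other gene between them. Rgs1 and Rgs2, which lie either side of Rgs13, were detectable and both lower in Tc9 cells, by 1.12 and 0.56 on the log2 scale. The other 3, Rgs13, Rgs21 and Rgs18, had levels between 3.02 and 3.68 on both arrays, below the threshold. Rgs8 and Rgs16 are next to each other elsewhere on chromosome 1, and both differed by less than 0.1 in size on the deposited scale. Rgs10 lies apart, on chromosome 7.

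RefSeq promoter sequences (GRCm38.p6) were found for 45 of the 60 genes. Rgs1, Gnal and Arrb1 were not among the 45, so their promoters could be neither shown nor searched. The 250 bases before the annotated start are shown 5′ to 3′ on the gene's strand for Rgs10, which was higher in Tc9 cells, for Rgs2, which was lower, for Rgs16, which hardly differed, and for Gng2, a subunit gene that was lower. They are at chr7:128418173-128418422 (minus strand), chr1:144004150-144004399 (minus strand), chr1:153740103-153740352 (plus strand) and chr14:19976694-19976943 (minus strand). Capitals mark GGGCGG, the GC box, CCAAT and TGANTCA, a looser pattern that takes in the AP-1 site, on either strand. Adjacent matches run together.
Rgs10: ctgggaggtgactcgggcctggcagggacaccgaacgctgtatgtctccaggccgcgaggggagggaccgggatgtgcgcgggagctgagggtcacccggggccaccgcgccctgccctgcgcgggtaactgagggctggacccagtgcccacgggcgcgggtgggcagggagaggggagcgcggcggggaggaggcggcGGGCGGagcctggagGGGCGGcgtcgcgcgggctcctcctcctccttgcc
Rgs2: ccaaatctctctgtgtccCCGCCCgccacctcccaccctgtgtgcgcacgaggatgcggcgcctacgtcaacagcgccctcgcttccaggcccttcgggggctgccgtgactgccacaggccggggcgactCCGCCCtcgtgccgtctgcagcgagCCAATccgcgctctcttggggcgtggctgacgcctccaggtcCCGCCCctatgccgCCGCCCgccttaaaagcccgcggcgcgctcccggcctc
Rgs16: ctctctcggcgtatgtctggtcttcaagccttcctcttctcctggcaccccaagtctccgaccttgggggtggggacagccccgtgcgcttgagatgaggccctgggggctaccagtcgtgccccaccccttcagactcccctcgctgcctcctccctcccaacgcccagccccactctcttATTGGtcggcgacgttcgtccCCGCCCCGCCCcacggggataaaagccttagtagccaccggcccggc
Gng2: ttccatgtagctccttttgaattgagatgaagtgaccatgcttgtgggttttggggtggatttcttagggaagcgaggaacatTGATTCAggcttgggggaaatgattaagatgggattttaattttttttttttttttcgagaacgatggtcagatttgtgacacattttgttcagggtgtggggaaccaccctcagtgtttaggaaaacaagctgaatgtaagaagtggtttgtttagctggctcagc

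The 3 RGS promoters were rich in G and C. They were 76.4%, 72.4% and 66.4% G and C for Rgs10, Rgs2 and Rgs16, beside a median of 52.4% over 32851 promoters, and held 2, 4 and 2 GC boxes. Rgs2 and Rgs16 each held a CCAAT box and Rgs10 none. The Gng2 promoter was 41.2% G and C, held no GC box, and carried a TGANTCA match that is not the strict AP-1 site. GC boxes occurred in 32.7% of all promoters, CCAAT in 33.8% and TGANTCA in 6.75%. None of the 4 windows held TTCNNNGAA, the STAT site of interferon gamma responses, which 7.02% of all promoters held, nor TTC and GAA with 4 bases between them, the wider spacing that STAT6 binds, which 5.85% held. The core of the interferon-stimulated response element, GAAA repeated after 2 bases, was in 2.98% of all promoters and TGACGTCA, the cyclic AMP response element, in 1.55%, and neither was in these 4. Among the 45 genes, the wider STAT spacing was found in Gnat3, Gpsm1, Grk4, Grk5 and Rgs12 and the narrower in Gng10. Grk5 and Gpsm1 were 1.15-fold and 1.17-fold higher in Tc9 cells, while Rgs12 and Gng10 differed by -0.09 and 0.12. A match is a run of letters in the sequence and shows no binding, and its absence shows nothing about the factor.

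Gnai2, Gnai3, Gnas and Gna13 were nearly level between the arrays, while other alpha genes differed more. Gnai2, the Gi subunit on which chemokine-driven migration of lymphocytes depends, had levels of 12.34 and 12.41, and Gnai3, its close relative, of 10.46 and 10.35. Gnas, which encodes the Gs subunit that activates adenylyl cyclase, had intensities of 4097 and 4163, a difference of 0.02. Gna13, of the G12/13 class, stood at 10.94 and 11.02. None of these 4 genes differed by more than 1.08-fold. Gnai1, 2 and 3 are similar in sequence, and the Gnas locus makes several overlapping transcripts, so cross-signal between relatives cannot be told apart from the gene's own.

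Gnal, Gna15 and Gna12 stood furthest from 0 among the alpha genes above the threshold on both arrays. Gnal, the Gs-class subunit of olfactory neurons and striatum, had levels of 7.47 and 6.46, 2.01-fold lower in Tc9 cells. Its Tc9 level lay only just above the threshold of 6.43, and the difference of -1.01 shrank to -0.94 with the arrays centred on gene medians and to -0.80 with a pseudocount of 32, so the 2-fold call rests on the scale. Gna15, a Gq-class subunit made by blood cells that couples to many receptors, had levels of 7.92 and 8.58, 1.59-fold higher in Tc9 cells. Gna12, the relative of Gna13, had levels of 9.60 and 9.97, 1.29-fold higher. The widely expressed Gq genes differed little, with Gna11 at 8.89 and 9.15 and Gnaq at 7.83 and 7.68. Gnai1 passed on the Tc9 array only, at 6.05 and 6.64, and was at least 1.15-fold higher. Gnao1, Gnaz, Gna14 and the transducin genes Gnat1, Gnat2 and Gnat3 were below the threshold on both arrays.

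The beta and gamma subunits form the dimer that carries Gi signals to phosphoinositide 3-kinase gamma. All 4 measured beta genes lay within 2-fold, Gnb5 differing most, by 1.16-fold. Gnb1 had levels of 12.12 and 12.27, and Gnb3, Gnb4 and Gnb5 had differences of 0.10, -0.20 and 0.22. The gamma genes spread more. Gng2, a gamma subunit common in leukocytes, had levels of 10.31 and 9.79, 1.43-fold lower in Tc9 cells, and Gng4 had levels of 7.09 and 6.67, 1.34-fold lower. Gng5, another widely expressed gamma subunit, had levels of 10.37 and 10.56, 1.15-fold higher. Gng10, at 8.63 and 8.76, and Gng12, at 8.81 and 8.82, were nearly level. Gng13, a subunit of taste cells and neurons, passed on the Tc9 array only, at 6.07 and 6.45, which gives a bound of at least 1.01-fold. Gng3, Gng7, Gng8 and Gng11 were below the threshold on both arrays. Over the 20 detectable subunit genes, 19 lay within 2-fold and 14 had a difference above 0, with a median of 0.09. Of all detectable genes, 5.41% passed 2-fold and 56.3% had a difference above 0.

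**Figure D2:**
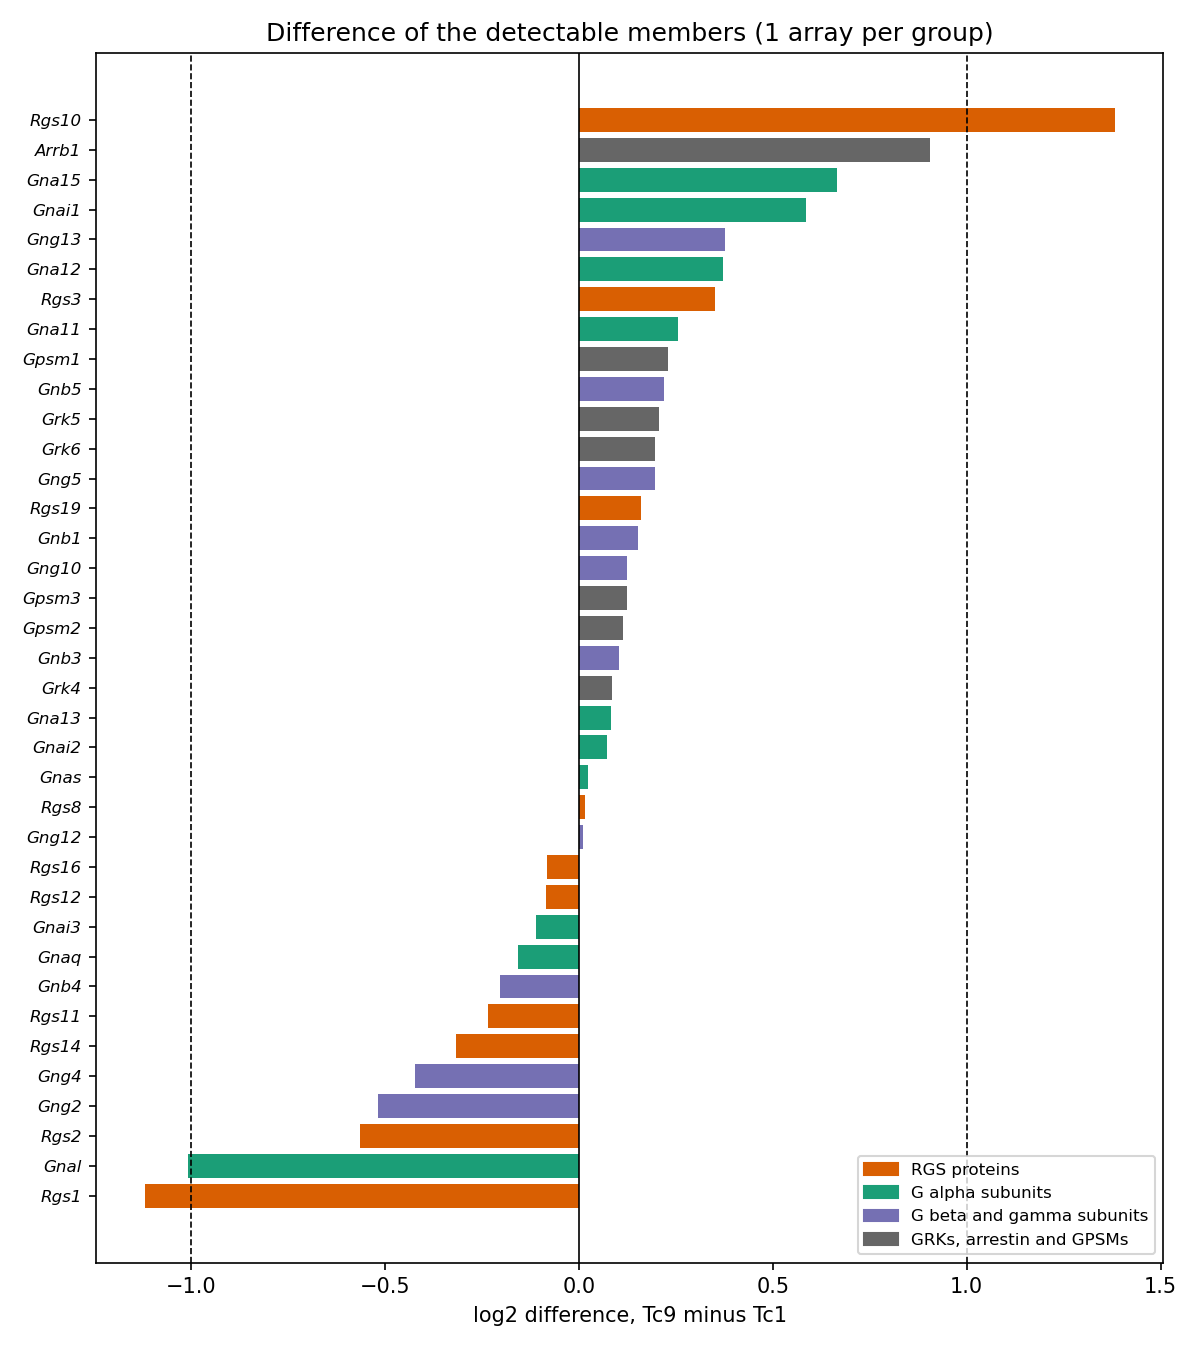
Log2 difference (Tc9 minus Tc1) of the 37 detectable genes, coloured by protein class, with dashed lines at 2-fold. Values below the threshold on 1 array are drawn as measured. Rgs10 at 1.38 is the longest bar, followed toward Tc1 by Rgs1 at -1.12 and Gnal at -1.01, and the GRK, arrestin and GPSM bars all point toward Tc9.

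Of the 9 measured genes that act on receptors or on free alpha subunits, 7 were detectable, and each of these had a higher level on the Tc9 array. Arrb1, which encodes beta-arrestin 1, had levels of 8.84 and 9.74, intensities of 458 and 857. It was 1.87-fold higher in Tc9 cells and 322nd from the top of the detectable genes, and it passed 2-fold, with a difference of 1.01, after centring on all probe sets. Grk6, a receptor kinase known from lymphocytes, had levels of 9.21 and 9.40, 1.15-fold higher, while Grk2 and Arrb2 were not analysed here. Grk5 stood at 6.82 and 7.02 and Grk4 at 6.53 and 6.61, and Grk1 and Grk3 were below the threshold on both arrays. The GPSM proteins bind GDP-bound Gi subunits through GoLoco motifs. Gpsm3, expressed mainly in blood cells, had levels of 8.07 and 8.19, Gpsm2, which orients the mitotic spindle, of 7.52 and 7.64, and Gpsm1 of 7.10 and 7.33. All 7 detectable genes of these classes had differences above 0, from 0.08 to 0.90 with a median of 0.20. Of all detectable genes 56.3% had a difference above 0, and apart from Arrb1 the differences were small.

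**Figure D3:**
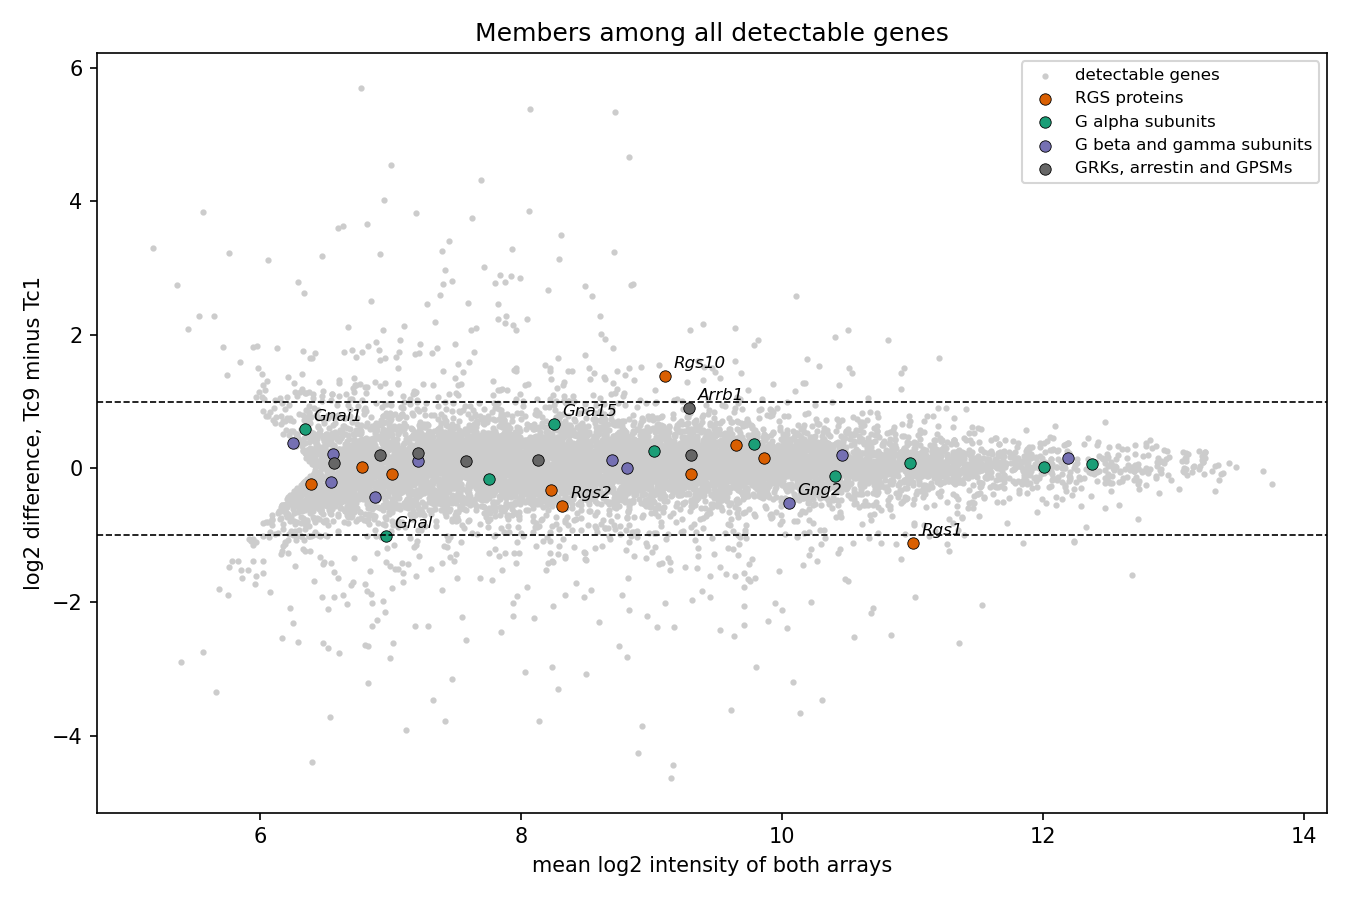
Log2 difference (Tc9 minus Tc1) against the mean log2 intensity of both arrays for all 10147 detectable genes (grey), with the 37 detectable genes of the set coloured by protein class and dashed lines at 2-fold. Names are given where the difference is 0.5 or more in size. Rgs1, Rgs10 and Arrb1 lie outside the dense middle of the grey cloud but well within its range of -4.6 to 5.7, and most subunit genes lie in its middle.

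The genes around this core were read from lists of receptors, effectors and targets, drawn up with earlier results of these data known. Beside the list counts below, 2.62% of all detectable genes passed 2-fold toward Tc9 cells and 2.79% toward Tc1 cells. The detectable subunit genes lay between -1.01 and 0.66, and the detectable Gi-coupled receptor genes between -1.11 and 5.33. Of 25 measured receptors that couple to Gi, 10 were detectable, of which 5 passed 2-fold toward Tc9 cells and 1 toward Tc1 cells. The higher ones were Ccr8, at least 31.1-fold, Cxcr6, at least 3.91-fold, Ccr4, 4.20-fold, Gpr183, an oxysterol receptor, 2.83-fold, and S1pr1, 2.16-fold. Ccr7 was the lower one, 2.16-fold. Of 8 measured Gs-coupled receptors 6 were detectable. Ptgir, the prostacyclin receptor, was higher by at least 3.19-fold and Hrh2, a histamine receptor, 2.74-fold higher, while the acid sensor Gpr65 was 2.02-fold lower, a difference of -1.01 that lies at the edge of the call. Of 11 measured receptors that couple to Gq or G12/13, 8 were detectable and P2ry1, an ADP receptor, was higher by at least 2.48-fold. Several of these genes, Ccr8, Cxcr6, Ptgir and P2ry1, were detectable only through the Tc9 array, where they were high. The medians over the detectable genes were 1.03, 0.69 and 0.37 for these receptor lists, but 0.09, 0.56 and 0.04 over all measured genes of each list.

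Among 20 effector genes, 12 were detectable, and by measured values 2 passed 2-fold in each direction. With dim values at the threshold, 2 passed toward Tc9 cells and only Pik3r5 toward Tc1 cells. The parts of phosphoinositide 3-kinase gamma, which beta-gamma dimers activate, differed in opposite directions. Pik3cg, the catalytic subunit, had levels of 9.81 and 11.06, 2.38-fold higher in Tc9 cells. Pik3r5, an adaptor subunit through which beta-gamma activates it, had levels of 10.41 and 8.49, 3.79-fold lower. Pik3r6, the alternative adaptor, had levels of 6.48 and 5.39 and was at least 1.03-fold lower. Arhgef11, an exchange factor with an RGS-homology domain that acts downstream of G12/13, was at least 3.13-fold higher, while Arhgef1, the related lymphocyte factor, differed by 1.06-fold. The adenylyl cyclases differed in both directions, with Adcy6 1.71-fold lower and Adcy7 and Adcy3 1.44-fold and 1.40-fold higher. Plcb2, a phospholipase C that Gq and beta-gamma activate, was 1.59-fold lower.

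Of 19 measured other regulators, 14 were detectable, 2 of these passed 2-fold toward Tc9 cells, and the median was 0.27. Axin2, a Wnt feedback protein that carries an RGS domain, was 2.15-fold higher and Gnb1l, a gene related to the beta subunits by sequence, 2.18-fold higher. Ric8a, a chaperone of alpha subunits, was 1.15-fold higher. Of 10 measured genes that cyclic AMP induces, 9 were detectable, 3 were at least 2-fold lower and none was as much higher, with a median of -0.93. Apart from Fos at 0.32 and Per1 at -0.04, the 9 lay between -1.65 and -0.65. The 3 were Nr4a2, 3.14-fold, Sik1, 2.81-fold, and Nr4a3, 2.15-fold lower, and all 3 are also induced by T cell receptor signals. Cyclic AMP itself was not measured, and the cause of the lower list median was not tested. After centring on all probe sets Nr4a3, Gpr65 and Pik3r6 no longer passed 2-fold, with differences of -0.99, -0.90 and -0.98, and Cxcr4 did so, at 1.07, which made 6 higher Gi-coupled receptors. Ccr7 then lay on the 2-fold line, and Per1 turned to 0.07.

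**Figure D4:**
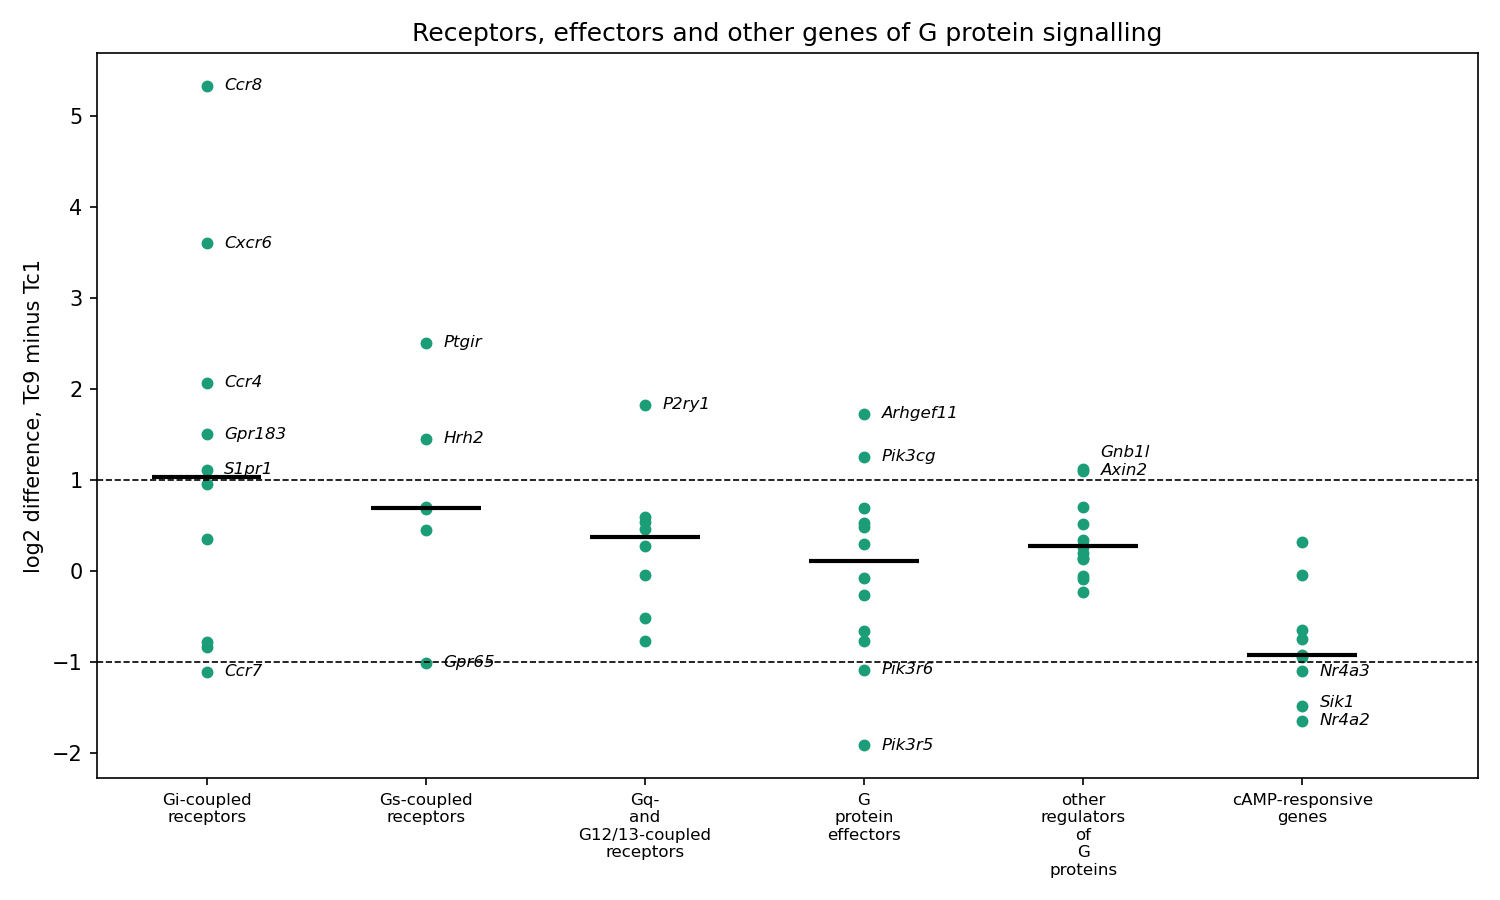
Log2 difference (Tc9 minus Tc1) of each detectable gene of 6 lists around the G protein core, 1 point a gene, with a bar at the list median and dashed lines at 2-fold. Genes past 2-fold are named, and values below the threshold on 1 array are drawn as measured. The Gi-coupled receptors reach 5.33, where the median of 1.03 covers 10 of 25 measured genes and falls to 0.09 over all 25. The cyclic AMP list has the lowest median, -0.93 over 9 genes and -0.87 over all 10 measured.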

How the data were processed

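The deposited table gives probe set intensities on a linear scale for 1 Tc1 and 1 Tc9 array. Per the labels' protocols, Trizol was used to extract total RNA, which received a biotin label as whole-transcript sense targets. How probes were summarized, background-corrected and normalized is not stated in the sources used here. Median intensities were 57.2 and 53.1, so values were taken as comparable, and log2 was applied with no pseudocount (Python 3.11.15, pandas 2.3.3).

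Of 28846 probe sets, 19572 carry a gene symbol. For a gene with several, the brighter was used. All 60 members matched RefSeq gene numbers with the same symbol. Of 5222 control probe sets with neg in their ID, 89.9% and 91.7% lay below the detection threshold, and of the 585 that reached it 16.2% differed by 2-fold. Where 1 array was below the threshold, the fold uses the threshold and reads "at least". Shares and counts past a fold use measured values, except where dim values at the threshold are named. The number of arrays limits the precision.

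Members and lists were chosen with earlier results of these data known. Every detectable member could be named, and of the other lists those past 2-fold; a few within 2-fold, the GC and CCAAT boxes and the promoters shown were chosen after values were seen. The call rule was tested on simulated data, with changes well past 2-fold in genes well above the threshold. That test does not cover calls close to 2-fold or genes close to the threshold. No test between groups was possible.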

Additional observations from a re-analysis of the deposited data

How the results depend on the processing

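The higher call of Rgs10 and the lower call of Rgs1 held under the 4 alternatives that could move them, which were both centrings, quantile normalization and the pseudocount, with differences of 1.30 to 1.49 and -1.12 to -1.01. The other 4, which were the threshold settings and the mean over probe sets, cannot change these values. Gnal did not hold. The number of genes at least 2-fold lower fell from 2 to 1 with the arrays centred on gene medians, with a pseudocount of 32 and with the arrays centred on the medians of all probe sets, where Gnal was at -0.94, -0.80 and -0.90. The last of these, added after the data were seen, also put Arrb1 past 2-fold, at 1.01, which made 2 higher genes, and moved the median difference from 0.10 to 0.21. That centring also moved the median over all 10147 detectable genes, from 0.05 to 0.15. Quantile normalization, dim values set at the threshold, a threshold at the 60th percentile, no threshold and the mean over probe sets left the counts at 1 higher and 2 lower. The mean over probe sets could not change any value of the set, because each gene has 1 probe set. Dim values at the threshold could not change the calls either, because the called genes lie above it on both arrays. Gng12 turned to -0.07 after quantile normalization. With 1 array per group, no replicate could be left out. No paired analysis was possible because the result comes from no test and each group has 1 sample. Depth is not defined for arrays, and the differences of the 23 genes below the threshold on both arrays are not read.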
